A study of Mus with 8 samples.

Results

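The kinesin genes are described here in the pigmented mouse melanoma line B16F10, after 48 h with 2 µM Butyroside D or in medium alone. They were found by their symbols in the deposited comparison table, as single names that start with Kif or Kifc and go on with a number. This gave 39 transcript clusters (the array's unit, usually a gene) of 22206. The family was selected on its low median in the contrast of Butyroside D with medium, so every value of that contrast below is a description and not a test of the family. In the arrays that median was -0.11 on the log2 scale, beside 0.01 over all transcript clusters, and in the authors' deposited table it was -0.18, beside -0.03. Kif1c, Kif27 and Kif17 share a transcript cluster with another gene and were left out.

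There were 4 arrays of cells with 2 µM Butyroside D and 4 arrays of cells in medium alone, called control arrays here. The treatment note of the control samples also names 0.2 µM of the compound, whereas their source names and descriptions give medium and their titles say only that they are controls. No label names separate cultures behind the arrays, so any p-value reflects just how these arrays vary, which may be technical. All 7 melanocyte markers that were checked (Tyr, Tyrp1, Dct, Pmel, Mlana, Sox10 and Mitf) were above background, with group means of 13.15 or more, while 0 of 5 keratinocyte, 0 of 6 leukocyte and 0 of 4 endothelial markers were. Of 5 markers each, 2 were above background for fibroblasts (Col1a1 and Col1a2) and 2 for neurons (Tubb3 and Map2). The 2 fibroblast markers had group means of 5.13 to 5.57, near the background level of 5.17. Those of the 2 neuron markers were 7.66 to 9.46.

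Kinesins are motor proteins that use ATP to act on microtubules. Some carry vesicles, organelles and protein complexes along them, mostly toward the plus end. Others act in cell division, where they slide or shorten spindle microtubules, move chromosomes or build the midzone that guides cytokinesis. In pigment cells, motors of this family move melanosomes outward and carry cargo to maturing melanosomes. By role, 14 members were placed among the mitotic kinesins, 15 among the transport kinesins, and 10 in a mixed class that acts in cilia, signalling or microtubule shortening.

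The arrays came in close pairs, and this touches every value that follows. Butyroside D arrays 1 and 2, Butyroside D arrays 3 and 4, control arrays 1 and 2, and control arrays 3 and 4 correlated within each pair at 0.997 to 0.998 over all transcript clusters, and between pairs at 0.986 to 0.993. For the kinesins, the median absolute difference within a pair was 0.11 on the log2 scale, beside 0.12 over all transcript clusters. Between the Butyroside D pairs it was 0.42, beside 0.35 over all, and between the control pairs 0.22, beside 0.26. A mean over 4 arrays therefore rests on 2 pairs. In whole-culture RNA, fewer cells that carry a transcript and less of it per cell cannot be told apart.

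Of the 39 members, 30 had a mean above 5.17 in at least 1 group, where 5.17 is the highest of the 8 array medians of the background probe sets (log2 signal). These were 13 mitotic kinesins, 11 transport kinesins and 6 of the mixed class. Kif2b, Kif5a, Kif1a, Kif5c, Kifc2, Kif6, Kif9, Kif12 and Kif7 were at or below it in both groups. Several of these are best known from neurons or motile cilia, such as the axonal motors Kif1a, Kif5a and Kif5c. Signals of different genes come from different probes and are not compared with each other.

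No kinesin passed the test in the arrays: 0 of 39 had an adjusted p under 0.05 (limma, Benjamini-Hochberg over all transcript clusters), where 0.117% of all transcript clusters did. At an unadjusted p under 0.05 there were 4 of 39 (Kif13a, Kif16b, Kif5a and Kif6), beside 17.9% of all. When limma treated pairs as a random block, 0 of 39 passed, beside 0% of all, and 2 (Kif13a and Kif6) had an unadjusted p under 0.05, beside 4.01% of all. Nothing is read from these counts, since the family was chosen on this contrast. The difference of Butyroside D arrays minus control arrays was negative for 24 of 39 kinesins (61.5%), beside 48.5% of all transcript clusters. For 21 of the 39 it was smaller than the pooled SD of the arrays, beside 60.3% of all transcript clusters.

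The difference lay mostly in 1 of the Butyroside D pairs. Against all 4 control arrays, the median over the 39 kinesins was -0.20 for Butyroside D arrays 1 and 2 and 0.01 for Butyroside D arrays 3 and 4, beside 0.04 and -0.01 over all transcript clusters. In Butyroside D arrays 1 and 2, 18 kinesins were below all 4 control arrays, beside 23.0% of all transcript clusters, and 3 were above all of them, beside 27.4%. In Butyroside D arrays 3 and 4, 9 were below all control arrays, beside 19.3% of all, and 4 above, beside 18.9%. The control pairs also differed from each other, and this comparison played no part in the choice of the family. Control arrays 3 and 4 minus control arrays 1 and 2 had a median of 0.20 over the kinesins and 0.01 over all transcript clusters, with 9 of 39 kinesins negative (23.1%), beside 49.1% of all. This 0.20 sets 1 pair against another, while the -0.20 sets a pair against the mean of all controls. The 2 medians are therefore unlike measures. Against the mean of the 4 control arrays, control arrays 1 to 4 had medians of -0.11, -0.08, 0.10 and 0.09 over the kinesins. Over the 30 kinesins above background, Butyroside D arrays 1 and 2 were at -0.32, and control arrays 3 and 4 minus control arrays 1 and 2 at 0.22.

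**Figure D1:**
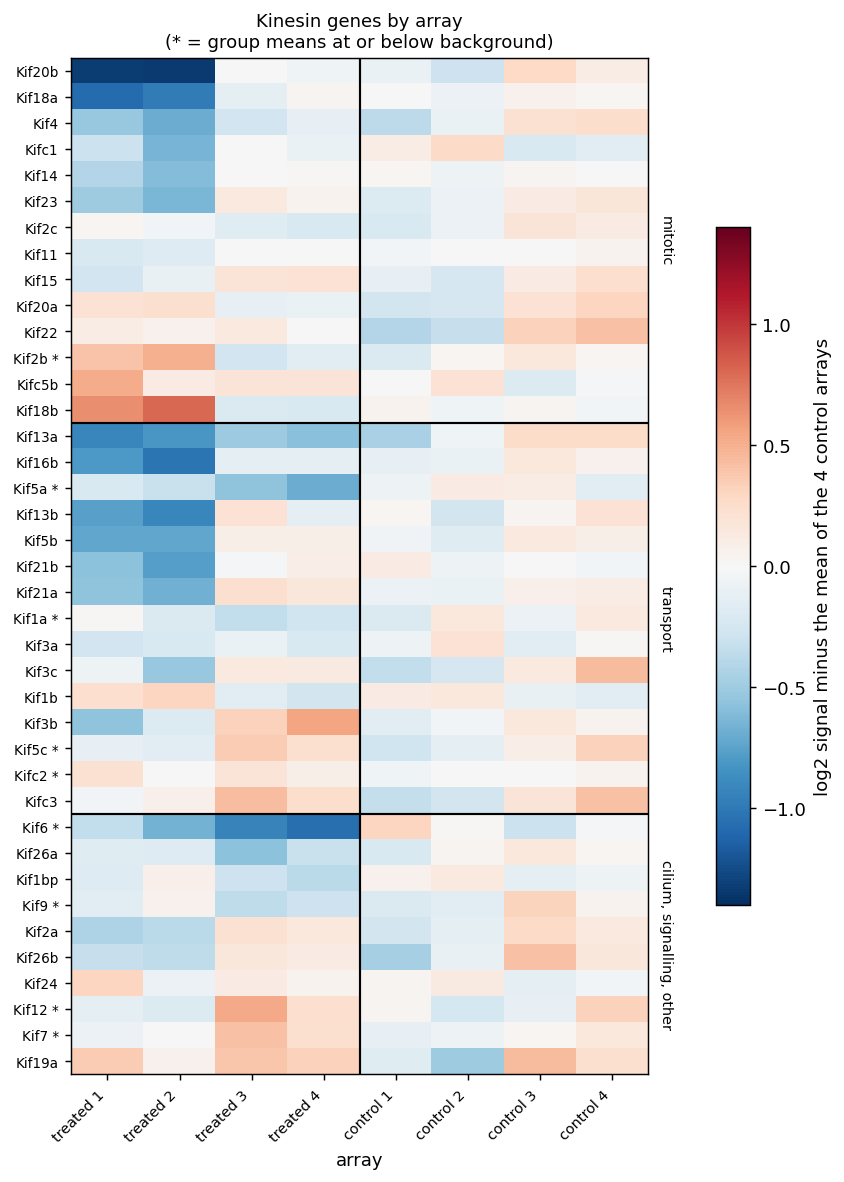
Log2 signal of the 39 kinesin genes (down the page, by class and then by difference) in the 4 Butyroside D arrays (labelled treated) and the 4 control arrays (across), as the difference from the mean of the 4 control arrays, with blue for lower and red for higher. The deepest blue lies in treated arrays 1 and 2, down to a difference of -1.33 for the mean of that pair in Kif20b, and treated arrays 3 and 4 are closer to the control arrays in most mitotic rows.

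Among the mitotic kinesins, those that act late in division, at the spindle midzone and in cytokinesis, differed from each other. Kif20b, a plus-end motor of cytokinesis, had log2 signals of 12.16, 12.15, 13.49 and 13.43 in Butyroside D arrays 1 to 4, against 13.39, 13.20, 13.76 and 13.59 in control arrays 1 to 4. The first pair was below every control array and the second lay among them. Its difference was -0.68, from means of 12.81 ± 0.76 and 13.48 ± 0.24 (SD, n = 4 each), and it was -1.33 in arrays 1 and 2, or 0.397 of the control level, the lowest of any kinesin in that pair.

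Kif23, the motor of the centralspindlin complex that forms the midzone, had 12.75, 12.60, 13.38 and 13.29 in Butyroside D arrays 1 to 4, against 13.05, 13.16, 13.36 and 13.41 in control arrays. Again only the first pair was below the control range, by a mean difference of -0.57. Kif14, which brings citron kinase to the midbody, had 10.45, 10.25, 10.85 and 10.88, against 10.89, 10.79, 10.90 and 10.86 in control arrays. Its control arrays had an SD of 0.05 (n = 4), and its first pair differed from them by -0.51.

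Kif20a, which carries the chromosomal passenger complex to the midzone, did not share this pattern. It had 12.34, 12.37, 12.03 and 12.05 in Butyroside D arrays 1 to 4, against 11.88, 11.91, 12.34 and 12.44 in control arrays. The groups overlapped, and the control pairs (0.49 apart) differed more than the groups did (0.06). Kif4, a chromokinesin that also works with Prc1 at the midzone, had 11.01, 10.84, 11.27 and 11.42, against 11.17, 11.45, 11.75 and 11.79 in control arrays, a difference of -0.41. Both Butyroside D pairs were lower than the control mean, by 0.62 and 0.20, but arrays 3 and 4 lay above the lowest control array. A pseudogene of Kif4 has its own transcript cluster on this array, and whether the Kif4 probes also read it was not tested.

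The motors that set the length and growth of spindle microtubules differed in direction. Kif18a, a kinesin-8 motor that shortens kinetochore microtubules and damps chromosome movement, had 8.14, 8.24, 9.09 and 9.26 in Butyroside D arrays 1 to 4, against 9.22, 9.14, 9.28 and 9.25 in control arrays. Arrays 1 and 2 were about 1 log2 unit below the control mean (-1.03, or 0.488 of its level), and arrays 3 and 4 were at it (-0.05). Its relative Kif18b, which acts on astral microtubules, had 9.86, 10.01, 9.01 and 8.99, against 9.26, 9.15, 9.25 and 9.17 in control arrays. Here the first pair was above every control array (0.72, or 1.65 times the control level) and the second pair below every one of them (-0.21), so the mean difference of 0.26 describes neither pair.

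Kif2c, the centromeric kinesin-13 that takes microtubule ends apart, had 12.40, 12.34, 12.21 and 12.16 in Butyroside D arrays, against 12.16, 12.30, 12.56 and 12.49 in control arrays. The groups overlapped, with a difference of -0.10 (means of 12.28 ± 0.11 and 12.38 ± 0.18, SD, n = 4 each). Kif2b, its relative, was at 2.69 and 2.57 in the group means, well within background.

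The motors that hold the spindle bipolar were close to the controls. Kif11 (Eg5), which pushes the spindle poles apart and is the target of monastrol, had 13.68, 13.71, 13.90 and 13.89 in Butyroside D arrays 1 to 4, against 13.85, 13.89, 13.89 and 13.94 in control arrays. Arrays 1 and 2 were lower than all controls, by 0.20 from their mean, and arrays 3 and 4 were among them. Kif15, which can stand in for Kif11, had 12.58, 12.75, 13.03 and 13.05, against 12.73, 12.61, 12.97 and 13.09 in control arrays, with group means of 12.85 each. Kif22, the chromokinesin that pushes chromosome arms outward, had 9.57, 9.53, 9.60 and 9.46, against 9.05, 9.14, 9.79 and 9.88 in control arrays. In this gene the spread was in the controls, whose pairs were 0.74 apart, the widest gap between control pairs in the family.

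Kifc1, a minus-end motor that gathers extra centrosomes to the spindle poles, had 8.54, 8.19, 8.84 and 8.75 in Butyroside D arrays, against 8.95, 9.11, 8.63 and 8.68 in control arrays. Kifc5b, a closely related mouse gene, had 7.28, 6.88, 6.94 and 6.95, against 6.77, 6.97, 6.57 and 6.75 in control arrays. Their differences had opposite signs, -0.26 and 0.25, and the groups overlapped in both. The probes of near copies can read both transcripts, so the share of each gene in these signals is uncertain.

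**Figure D2:**
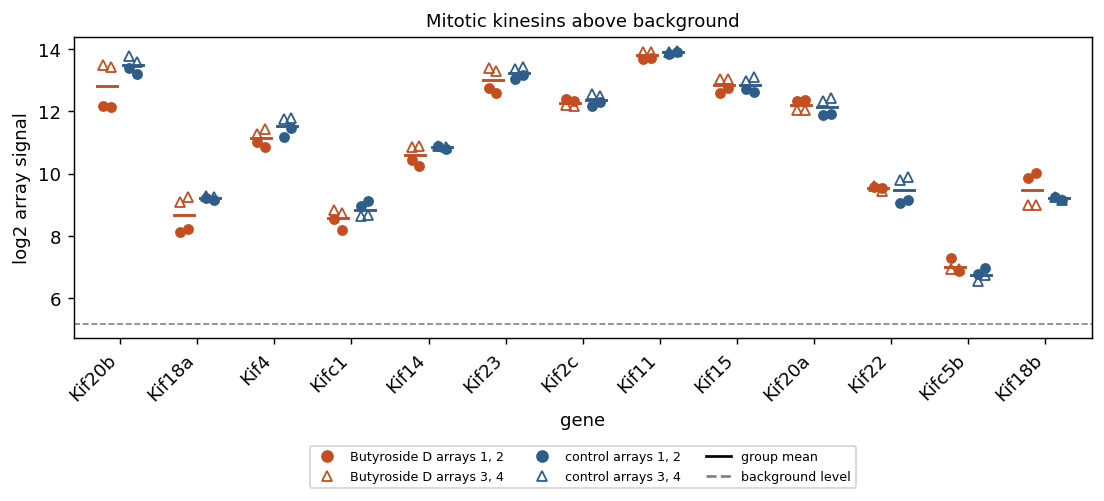
Log2 array signal (vertical) of the 13 mitotic kinesins above background (horizontal), with the Butyroside D arrays in orange and the control arrays in blue to their right, filled circles for arrays 1 and 2, open triangles for arrays 3 and 4, bars for group means and a dashed line for the background level of 5.17. In Kif20b and Kif18a the orange circles lie far below all other points, and in Kif18b far above them.

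Over the 13 mitotic kinesins above background, the difference was negative for 8, beside 46.9% of all transcript clusters above background. The median was -0.10, beside 0.02. In Butyroside D arrays 1 and 2, 7 of the 13 were below all control arrays, beside 23.0% of all transcript clusters. Above them was 1 (Kif18b), beside 27.4% of all. In Butyroside D arrays 3 and 4, 12 of the 13 were neither below nor above all control arrays, beside 61.9% of all. The exception was Kif18b. No mitotic kinesin had all 4 Butyroside D arrays below, or all above, the 4 control arrays, beside 5.93% and 6.98% of all. The shares for single pairs and for all 4 arrays are over all transcript clusters, of which 46.5% were at or below background in both groups.

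Among the 11 transport kinesins above background, 2 had all Butyroside D arrays below all control arrays, beside 5.93% of all transcript clusters. Kif13a, a kinesin-3 motor that carries melanosome cargo out of endosomes in pigment cells, had 7.61, 7.71, 8.02 and 7.94 in Butyroside D arrays 1 to 4, against 8.07, 8.47, 8.78 and 8.78 in control arrays. The groups did not overlap, though the highest Butyroside D array (8.02) and the lowest control array (8.07) were nearly equal. The difference was -0.70, or 0.614 of the control level, from means of 7.82 ± 0.19 and 8.52 ± 0.33 (SD, n = 4 each), and it was -0.86 and -0.54 in the 2 Butyroside D pairs.

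Kif16b, a motor of early endosomes, had 8.87, 8.66, 9.55 and 9.54 in Butyroside D arrays, against 9.56, 9.59, 9.82 and 9.74 in control arrays. The groups did not overlap, though the nearest arrays (9.55 and 9.56) were almost equal, and arrays 3 and 4 were 0.13 below the control mean where arrays 1 and 2 were 0.91 below it. Kif13b, the nearest relative of Kif13a, had 5.15, 5.00, 6.11 and 5.78, against 5.94, 5.65, 5.95 and 6.11 in control arrays. Its first pair was down to the background level, so the size of that difference (-0.84) is uncertain.

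All 4 Butyroside D arrays were below all 4 control arrays for 4 of 39 kinesins (Kif13a, Kif16b, Kif5a and Kif6), beside 5.93% of all transcript clusters. The reverse held for 0 of 39, beside 6.98% of all. Kif5a and Kif6, named because they complete this count, were at or below background: Kif5a had a mean of 3.73 in Butyroside D arrays and 4.17 in control arrays, and Kif6, a ciliary motor, 4.39 and 5.14. The difference of Kif6, -0.75, was the lowest of the family, but no size can be given to a signal in the background range.

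Kif5b, the conventional kinesin heavy chain of most cells, had 15.89, 15.89, 16.71 and 16.70 in Butyroside D arrays 1 to 4, against 16.57, 16.45, 16.76 and 16.71 in control arrays. The first pair was 0.73 below the control mean, or 0.602 of its level, and the second pair 0.08 above it. Kif21b and Kif21a, kinesin-4 motors that restrain microtubule growth, showed the same order of arrays. Kif21b had 12.22, 12.02, 12.76 and 12.88, against 12.91, 12.72, 12.79 and 12.75 in control arrays, and Kif21a had 8.62, 8.51, 9.41 and 9.35, against 9.11, 9.09, 9.26 and 9.29 in control arrays. In these 3 genes the Butyroside D pairs were 0.82, 0.70 and 0.82 apart, against 0.22, 0.04 and 0.18 for the control pairs.

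The subunits of kinesin-2, which works in cilia and moves melanosomes in frog pigment cells, did not go together. Kif3a had 12.68, 12.73, 12.85 and 12.73 in Butyroside D arrays, against 12.87, 13.15, 12.80 and 12.96 in control arrays, a difference of -0.20 with overlap at 1 array of each group. Its partner Kif3b had 7.75, 8.13, 8.64 and 8.87, against 8.16, 8.28, 8.46 and 8.37 in control arrays. Its first pair was below and its second pair above every control array (-0.38 and 0.44), which left a mean difference of 0.03. Kif3c, the alternative partner of Kif3a, differed by -0.08 (-0.30 and 0.13 in the pairs), and Kifap3, the subunit that binds cargo, by -0.22 ± 0.29 (SE, n = 4 per group; -0.76 and 0.32 in the pairs).

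The remaining transport motors above background were Kif1b, which moves mitochondria and synaptic vesicle precursors, and Kifc3, a minus-end motor of epithelial junctions. Kif1b had 8.27, 8.33, 7.88 and 7.77 in Butyroside D arrays, against 8.14, 8.18, 7.93 and 7.87 in control arrays, so its first pair was the highest of all arrays and its second pair overlapped the controls. Kifc3 had 8.43, 8.54, 8.90 and 8.71, against 8.13, 8.21, 8.65 and 8.88, with the control pairs 0.60 apart. Over the 11 transport kinesins above background the difference was negative for 8, beside 46.9% of all transcript clusters above background. The median was -0.21, beside 0.02. In Butyroside D arrays 1 and 2, 8 of the 11 were below all control arrays, beside 23.0% of all transcript clusters, those in the background range included. The median was -0.62 in that pair and 0.03 in arrays 3 and 4, beside 0.00 and 0.05 over all above background.

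**Figure D3:**
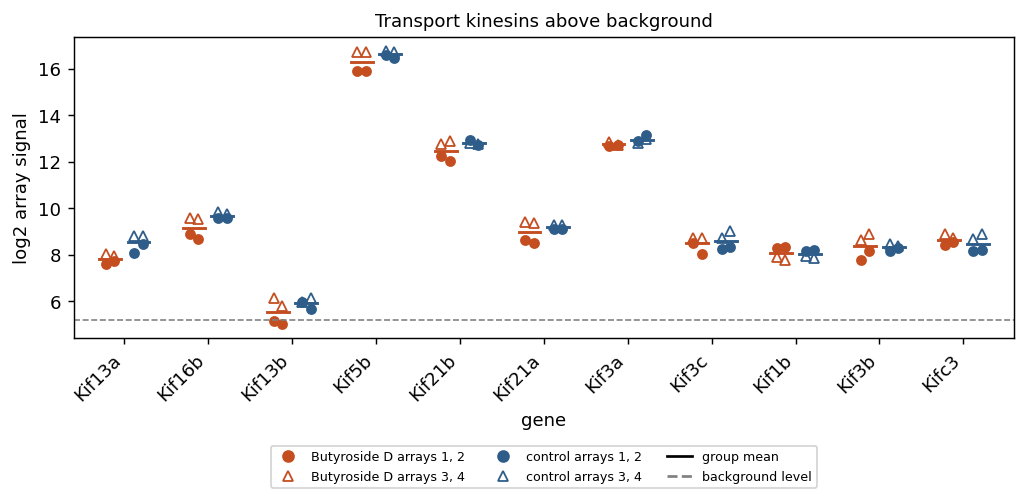
Log2 array signal (vertical) of the 11 transport kinesins above background (horizontal), drawn as for the mitotic kinesins, with Butyroside D arrays in orange left of the control arrays in blue. For Kif5b, Kif21b and Kif21a the orange circles (arrays 1 and 2) sit below the controls, the orange triangles (arrays 3 and 4) lie beside them for Kif5b and Kif21b and above them for Kif21a, and for Kif13a both are low.

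In the mixed class, 6 of 10 members were above background. Kif26a, a kinesin relative without motor activity that acts in growth factor signalling, had 8.82, 8.81, 8.42 and 8.68 in Butyroside D arrays 1 to 4, against 8.78, 9.03, 9.14 and 9.02 in control arrays. It was lower in both pairs, by 0.18 and 0.45, and here the second pair was the lower one. Kif1bp (now Kifbp) matched the naming rule but encodes a protein that binds kinesins and is no motor. It differed by -0.20, again with the second pair lower (-0.05 and -0.34).

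Kif2a, a microtubule depolymerase of spindle poles and neurites, fell outside the rule for naming and is given because it links the mitotic and the other classes. It had 12.45, 12.51, 13.10 and 13.03 in Butyroside D arrays, against 12.63, 12.75, 13.15 and 13.02 in control arrays, so that arrays 1 and 2 were again below all controls. Kif26b, Kif24, which acts at centrioles, and Kif19a, which limits the length of cilia, differed by -0.11, 0.10 and 0.28. The differences in the 2 Butyroside D pairs were -0.34 and 0.13 for Kif26b, 0.11 and 0.09 for Kif24, and 0.20 and 0.36 for Kif19a. All of these had overlapping groups. Control arrays 1 and 2 of Kif19a, at 5.13 and 4.81, were below the background level, so the size of its difference is uncertain. Without these 2 arrays the difference of Kif19a was -0.05. The 9 members in the background range had differences of -0.75 to 0.13 and are not described by size.

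The authors' deposited table gives 1 average per group and no values per array. Its control averages were within 0.01 of the Tukey biweight mean (an average that gives outlying arrays less weight) of the 4 control arrays for all 39 kinesins. The same held for 22197 of all 22206 transcript clusters. Its Butyroside D averages were that close to the Butyroside D arrays' biweight mean for 2 of 39 (Kif3b and Kif26b), beside 2.4% of all. They lay outside the range of the 4 Butyroside D arrays for 16 kinesins, beside 41.2% of all transcript clusters. Which arrays the Butyroside D averages of the authors' deposited table were made from is therefore uncertain, and so is every fold change quoted from it. The array values and the authors' deposited table use the same control arrays, so likeness between them is no independent evidence, and their values are set side by side only.

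In the authors' deposited table, 1 of 39 kinesins had an FDR under 0.05, beside 1.56% of all transcript clusters (0.666% that were lower). It was Kif11, with averages of 13.29 for Butyroside D and 13.89 for controls in the authors' deposited table (log2 fold change of -0.60). None of the 4 Butyroside D arrays was that low, since they ran between 13.68 and 13.90 where the average of the authors' deposited table was 13.29. Negative values in the authors' deposited table were found for 26 of 39 kinesins, beside 52.8% of all.

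The classes differed between the sources. All 13 mitotic kinesins above background were negative in the authors' deposited table, with a median of -0.37 and a range of -0.60 to -0.08. In the arrays 8 of these were negative. Over all transcript clusters above background the authors' deposited table had a median of 0.00, with 49.0% negative. Kifc1 was at -0.55, Kif4 and Kif18a at -0.54 each, Kif18b at -0.48, Kif15 at -0.38 and Kif14 at -0.37 in the authors' deposited table. For Kif18a the difference was the same in the arrays (-0.54), and for Kif18b it had the opposite sign there (0.26).

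The 11 transport kinesins above background had a median of -0.01 in the authors' deposited table, with 6 of 11 negative, beside -0.21 and 8 of 11 in the arrays. Kif13a, the lowest of these in the arrays, had averages of 8.61 and 8.62 in the authors' deposited table, a log2 fold change of 0.00, and the average of 8.61 was above all 4 Butyroside D arrays. Kif16b was at -0.07, and Kif13b, Kif21a and Kif21b were positive there (0.25, 0.25 and 0.19 in the authors' deposited table). Kif3a was lower in both sources, with -0.33 in the authors' deposited table and -0.20 in the arrays. Over the family, 17 of 39 kinesins were negative in both, beside 31.6% of all transcript clusters.

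**Figure D4:**
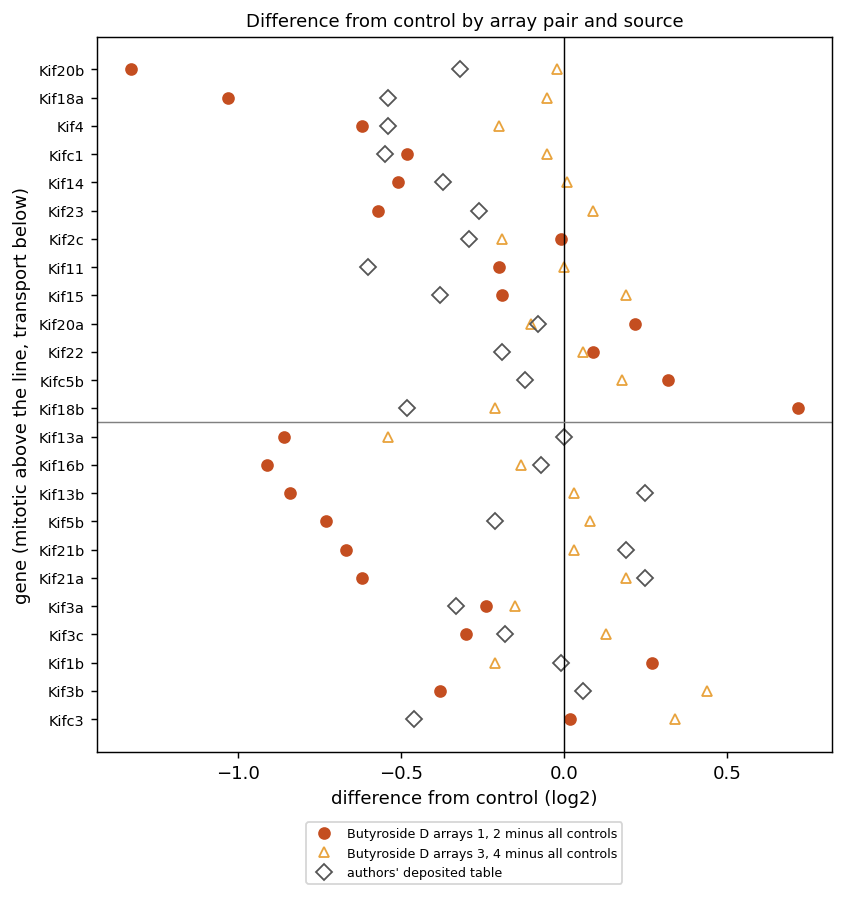
Difference from control on the log2 scale (horizontal) for the 24 mitotic and transport kinesins above background (vertical), as Butyroside D arrays 1 and 2 minus all controls (filled circles), Butyroside D arrays 3 and 4 minus all controls (open triangles) and the authors' deposited table (open diamonds). The diamonds of the mitotic genes are all left of 0, from -0.60 to -0.08, while those of the transport genes lie on both sides.

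Genes that work with the kinesins were read from lists. Among partners of the mitotic kinesins, 0 of 21 measured genes passed the test in the arrays (limma, Benjamini-Hochberg, beside 0.117% of all), and 2 had an unadjusted p under 0.05, beside 17.9% of all. With pairs as a random block 0 of the 21 had an unadjusted p under 0.05, beside 4.01% of all. The 2 were Kpna2, an importin, at -0.39 ± 0.14 (limma adjusted p = 0.207) and Cenpe, itself a kinetochore kinesin under another name, at -0.43 ± 0.16 (SE, n = 4 per group; limma adjusted p = 0.210). Cenpe had 13.41, 13.45, 13.87 and 13.86 in Butyroside D arrays, against 13.95, 13.90, 14.19 and 14.28 in control arrays, with no overlap. Next by p were Tpx2, a spindle assembly factor, at 0.24 ± 0.12, and Hmmr, which binds microtubules at spindle poles, at 0.56 ± 0.26 (limma adjusted p = 0.304 and 0.305). Against all controls, Hmmr was at 1.05 in Butyroside D arrays 1 and 2 and at 0.06 in arrays 3 and 4, so its mean describes neither pair. For Kpna2 and Tpx2 both pairs had the sign of the mean (-0.59 and -0.18, and 0.33 and 0.16). In the authors' deposited table Kpna2, Tpx2 and Hmmr had the opposite sign (0.11, -0.12 and -0.44), and Cenpe was at -0.44. The median over the 21 partners was -0.01, with 11 negative, beside 48.5% of all transcript clusters. In the authors' deposited table their median was -0.20, with 16 negative, beside 52.8% of all, so negative values there were not particular to the mitotic kinesins. Of the 21, 1 passed in the authors' deposited table: Ect2, the activator of RhoA that centralspindlin recruits, at -0.95. In the arrays Ect2 was at 0.39 in Butyroside D arrays 1 and 2 and at -0.34 in arrays 3 and 4, which left a mean difference of 0.03.

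Among kinesin light chains, adaptors, dynein, dynactin and melanosome transport genes, 0 of 26 passed the test in the arrays (limma, beside 0.117% of all) and 5 had an unadjusted p under 0.05, beside 17.9% of all. With pairs as a random block 1 of the 26 had an unadjusted p under 0.05, beside 4.01% of all. Klc1, a light chain that links Kif5 motors to cargo, was at -0.55 ± 0.19 (SE, n = 4 per group; limma adjusted p = 0.193), with -0.90 in Butyroside D arrays 1 and 2 and -0.20 in arrays 3 and 4. The others named were Dctn4, a dynactin subunit, at 0.82 ± 0.30, Mapk8ip3, a motor adaptor, at 0.40 ± 0.15, and Dync1li1, a dynein chain, at 0.29 ± 0.12 (SE, n = 4 per group; limma adjusted p between 0.207 and 0.238). Dctn4 was at 1.36 in Butyroside D arrays 1 and 2 and 0.28 in arrays 3 and 4, Mapk8ip3 at 0.49 and 0.31, and Dync1li1 at 0.33 and 0.25. The median over the 26 genes was 0.20, with 8 negative, beside 48.5% of all transcript clusters. This median had the opposite sign to that of the transport kinesins (-0.20 over all 15, of which 10 were negative). The difference between these lists was not tested. Of the 26, 0 passed in the authors' deposited table, and the median was 0.07. There Klc1 and Mapk8ip3 kept their sign (-0.26 and 0.32), while Dctn4 was at -0.01 and Dync1li1 at -0.21.

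Of 13 measured proliferation genes, 9 were lower in both of Butyroside D arrays 1 and 2 than in both of arrays 3 and 4, and 3 were higher, beside 33.4% and 41.3% of all transcript clusters. For the kinesins these counts were 23 and 11 of 39. Mki67, a marker of cycling cells, had 16.00, 16.24, 16.78 and 16.85 in Butyroside D arrays 1 to 4, against 16.71, 16.80, 17.09 and 17.12 in control arrays. Top2a, the topoisomerase of dividing cells, was 1.09 below the control mean in Butyroside D arrays 1 and 2 and 0.14 above it in arrays 3 and 4. The 13 genes of this list had a median of -0.54 in arrays 1 and 2 and 0.25 in arrays 3 and 4, against all controls, and 0 of 13 passed the test (limma). Mcm2, Mybl2 and E2f1, which are a replication helicase subunit and cell cycle transcription factors, were above the control mean in arrays 1 and 2, by 0.28, 0.37 and 0.32. The list includes Cdkn1a, the p21 inhibitor of cyclin-dependent kinases, which is 1 of the 3 genes counted as higher and enters the medians. Cdkn1a was 3.29 above the control mean in arrays 1 and 2 and 0.73 above it in arrays 3 and 4. The part of proliferation in the kinesin values was not tested.

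**Figure D5:**
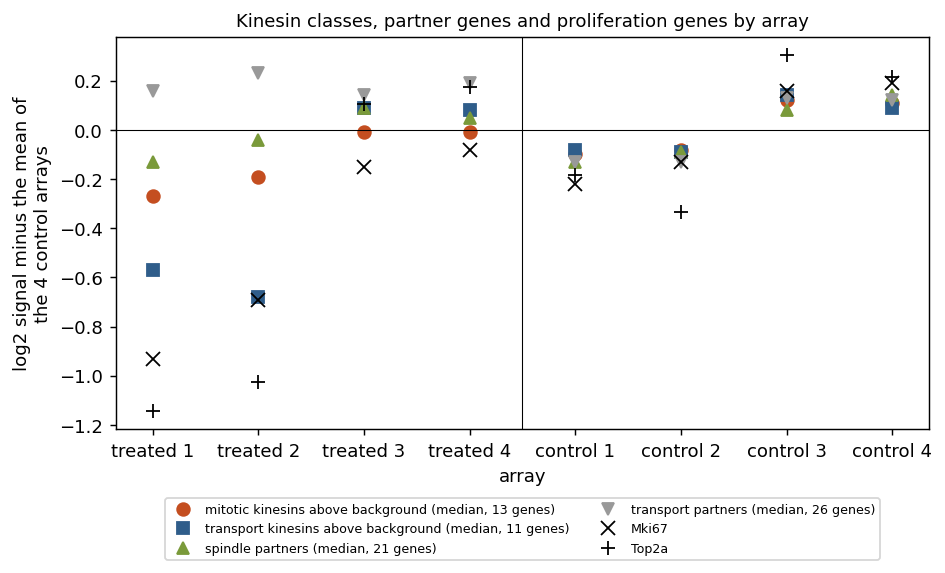
Log2 signal as the difference from the mean of the 4 control arrays (vertical) in each of the 4 Butyroside D arrays (labelled treated) and the 4 control arrays (horizontal), as the median over each gene list and as single values for Mki67 and Top2a. Treated arrays 1 and 2 have the lowest points for the transport kinesins, Mki67 and Top2a, and control arrays 1 and 2 lie below control arrays 3 and 4 in all lists.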

How the data were processed

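Mouse Clariom S arrays were processed with RMA, and with Affymetrix Expression Console beside Transcriptome Analysis Console, per the submitters' processing notes. Their versions and the genome build were not given in the sources used here. The authors deposited log2 signals per array. Their second table holds log2 averages per group, a signed fold change (a score, as values below 1 are negative inverses), a p-value and an FDR, from a test that the file headers of the deposited table do not name.

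After 6640 control probe sets were set aside, 22206 transcript clusters were fitted by lmFit and eBayes of limma 3.58.1 (R 4.3.3; two-sided tests), which left 6 residual degrees of freedom. P-values were adjusted over all of them by Benjamini-Hochberg and read at 0.05. The main model had no block: arrays of equal number correlated at 0.0696 to 0.0839 in their deviations from group means. The close pairs are another matter, with a consensus correlation of 0.808 in limma. The main model left this out, so its SEs and p-values count the arrays of a pair as independent. The number of arrays limits the precision.

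The members and lists were chosen with earlier results of these data known. Named were mitotic members above background, Kif3a, Kif3b, Kif5b and Kif13a, the 6 lowest and 6 highest others above background, any member past a threshold, and up to 4 genes with the smallest p per partner list. Symbols are the deposited ones, and RefSeq (GRCm38.p6) holds 38 as symbols and 1 as a synonym. Ckap5 and Foxm1 have no transcript cluster of a single name here. Sequences were not used here. Alternatives were random pair blocks, pair means, a replicate block, centring, quantile normalization, a dim filter, eBayes with trend, left-out arrays, the authors' deposited table and changed mitotic lists.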

Additional observations from a re-analysis of the deposited data

Results flagged for a closer look

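In 1 of 58 groups of 4 arrays read for the 29 named kinesins, 1 array's distance to its nearest neighbour passed the critical value of Dixon's gap test. It was Butyroside D array 1 for Kifc5b, at 7.28 where the other 3 arrays had 6.88 to 6.95, a gap of 0.841 of the range. About 1 in 20 groups of independent arrays is set apart by chance, and the close pairs make this share uncertain here.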

How the results depend on the processing

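No kinesin passed the test under any of the 7 other fits or scalings of the 8 arrays, nor without any single array (0 in each). With the close pair Butyroside D 1 and 2 left out (chosen after seeing the data), 2 of 39 passed (Kif5a and Kif6, both dim), beside 3.97% of all transcript clusters, and with Butyroside D arrays 3 and 4 left out 12 passed, beside 24.8%. Such fits count near-duplicate arrays as independent samples, as the main fit does too. For partners the counts were 0 and 7 of 21 (spindle) and 1 and 4 of 26 (transport). The authors' deposited table held 1 kinesin and 1 spindle partner with an FDR under 0.05. Over all transcript clusters 26 passed, against 48 with arrays centred on their medians, 55 with dim ones left out, 347 in the authors' deposited table, 881 and 5502 without Butyroside D arrays 1 and 2 or 3 and 4, 0 with either block, with pair means or without control arrays 3 and 4, and 0 to 5 without a single array. The replicate block left 0 kinesins and a family median of -0.11.

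The family median of -0.11 became 0.01 without Butyroside D arrays 1 and 2 and -0.25 without control arrays 1 and 2. The mitotic median of -0.10 became -0.03 without Butyroside D arrays 1 and 2 and -0.01 without control arrays 3 and 4. It became -0.22 without control arrays 1 and 2 and -0.34 in the authors' deposited table. The transport median of -0.20 became 0.03 without Butyroside D arrays 1 and 2 and 0.00 in the authors' deposited table. The mixed class, at -0.11, became 0.11 without Butyroside D arrays 1 and 2 and 0.05 without control arrays 3 and 4. Without a single array the medians ran from -0.20 to -0.07 (family), -0.14 to -0.07 (mitotic), -0.24 to -0.16 (transport) and -0.19 to 0.00 (mixed). The family was at -0.20 without control array 1 and -0.07 without Butyroside D array 2. The mixed class was at 0.00 without control array 3, -0.06 without control array 4, -0.19 without control array 1 and -0.02 without either Butyroside D array 1 or 2. The blocks, pair means and eBayes with trend leave every difference of means as it was by construction. The probes' signal over background limits the 9 dim members.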
